A study of Mus musculus with 9 samples.

Results

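The genes examined here drive and carry out the cell division cycle: 40 listed genes of S phase, mitosis and the cyclin system, of which 38 had a probe set that carries a single gene symbol on the array. All 38 passed the filter on dim probe sets, and they are 38 of 13335 genes tested. Cdkn1a and Ccnb1 had no such probe set and were not analysed here. The expression microarrays measured RNA of primary brown fat cultures grown from precursor-enriched cells of the interscapular depot of male C57BL/6 mice, aged 5 weeks in the sample labels and between 4 and 6 weeks in the design text. There were 3 cultures in each of 3 groups, numbered by subject: cultures 7, 8 and 9 received 5 µM 1-oleoyl lysophosphatidic acid (LPA, a signalling lipid), cultures 4, 5 and 6 received 2.5 µM HA155 (an inhibitor of autotaxin, the secreted enzyme that makes LPA), and control cultures 1, 2 and 3 received the DMSO vehicle. All groups shared an insulin schedule of 50 nM from day 1, raised on day 5 to 100 nM and on day 7 to 200 nM, and were collected at about day 9. The sources place treatment both at 9 days in vitro and during differentiation, and do not settle how long the cells were exposed. The design text states that the treatments left confluence and proliferation markers unaffected, and the comparisons below ask how cell cycle transcripts stood in the same cultures.

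Fat precursors in culture are known to divide, leave the cell cycle and then fill with lipid. Genes of replication and mitosis in such cultures therefore report mainly on cells that still divide, which need not hold for G1 regulators and CDK inhibitors. Cyclin D kinases inactivate the retinoblastoma protein and free E2F factors, which switch on genes of DNA replication. Genes of mitosis are switched on later in the cycle, through promoter elements bound by the MuvB complex and NF-Y. CDK inhibitors hold the kinases back and accumulate as many cell types differentiate. Because each array measured a whole culture, fewer dividing cells and less RNA per dividing cell cannot be told apart.

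The promoters of the replication fork genes and of the mitosis genes differed in their letters. RefSeq promoter windows (GRCm38.p6, 250 bases before to 50 after the start) were found for 33 of the 40 genes, 38 windows in all. Both strands were searched for the E2F letters TTTGGCGC, TTTCCCGC, TTTGCCGC and TTTCGCGC, for the cell cycle homology region (CHR) as TTTGAA, and for CCAAT. The E2F matches may overlap each other across strands, while CHR and CCAAT matches share no letters with them in the stretches below. E2F letters stood in 5 of 8 windows of the origin licensing and replication fork genes and in 0 of 11 windows of the mitosis genes, against 2.26% of 32851 mouse windows. For the deoxynucleotide genes, also of S phase, it was 0 of 4 windows. For the G1 genes it was 2 of 8, and for the S to M cyclins and Cdk1 1 of 3. CHR and CCAAT letters stood together in 8 of 11 mitosis windows, against 6.95% of all windows. The pair also stood in 2 of 3 windows of the S to M cyclins and Cdk1. It stood in 1 of 8 origin and fork windows, 1 of 8 G1 windows and 0 of 4 deoxynucleotide windows. Counted singly, CCAAT letters were common in both roles. They stood in 7 of 8 origin and fork windows and in 10 of 11 mitosis windows, against 37.4% of all windows. CHR letters stood in 1 of 8 and in 8 of 11, against 17.9% of all windows. Such matches describe the letters and are not measured binding sites. The bases before the start are shown for Cdkn2c, which had the largest difference among the 38 genes. They are also shown for a pair of replication genes chosen for their E2F letters, and for 3 mitotic genes chosen for CHR and CCAAT letters. Not all genes of these roles carry them: Pcna and Mcm2 windows lack E2F letters, and Birc5, Bub1 and Cenpe windows lack CHR letters. Matches are in capitals, and the letters run 5′ to 3′ on the gene's strand.
Cdkn2c: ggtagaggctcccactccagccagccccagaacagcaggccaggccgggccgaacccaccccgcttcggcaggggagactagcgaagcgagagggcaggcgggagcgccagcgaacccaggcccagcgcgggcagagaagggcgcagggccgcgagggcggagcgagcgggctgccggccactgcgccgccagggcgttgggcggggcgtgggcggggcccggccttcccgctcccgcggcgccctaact
Mcm5: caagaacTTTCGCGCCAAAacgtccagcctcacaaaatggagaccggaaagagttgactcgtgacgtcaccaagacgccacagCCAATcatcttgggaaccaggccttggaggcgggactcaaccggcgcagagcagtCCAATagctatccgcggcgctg
Mcm6: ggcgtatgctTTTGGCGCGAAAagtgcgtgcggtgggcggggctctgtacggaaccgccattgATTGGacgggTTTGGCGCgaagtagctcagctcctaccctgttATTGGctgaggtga
Cdk1: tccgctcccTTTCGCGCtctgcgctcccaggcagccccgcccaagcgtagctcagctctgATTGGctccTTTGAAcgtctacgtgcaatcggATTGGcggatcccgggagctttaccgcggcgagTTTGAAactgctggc
Top2a: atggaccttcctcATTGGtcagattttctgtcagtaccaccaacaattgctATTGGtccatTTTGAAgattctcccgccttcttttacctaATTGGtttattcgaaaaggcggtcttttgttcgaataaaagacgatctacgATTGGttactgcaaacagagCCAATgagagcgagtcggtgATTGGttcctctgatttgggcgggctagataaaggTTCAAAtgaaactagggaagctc
Mki67: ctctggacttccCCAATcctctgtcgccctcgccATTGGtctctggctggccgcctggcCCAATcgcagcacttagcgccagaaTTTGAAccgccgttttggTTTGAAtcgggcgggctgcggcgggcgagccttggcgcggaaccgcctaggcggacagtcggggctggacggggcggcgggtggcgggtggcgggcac
These are chr4:109666757-109667006 (minus strand) for Cdkn2c, chr8:75109349-75109508 (plus strand) for Mcm5, chr1:128359706-128359825 (minus strand) for Mcm6, chr10:69352913-69353052 (minus strand) for Cdk1, chr11:99024190-99024429 (minus strand) for Top2a and chr7:135716380-135716579 (minus strand) for Mki67. Each ends at the base before the annotated start. The runs of 12 capitals in Mcm5 and Mcm6 are overlapping E2F matches on opposite strands. None of these letters is in the Cdkn2c stretch, although the window of a second annotated Cdkn2c start has a CCAAT match at position 8 after that start, while Cdk1, Top2a and Mki67 carry CHR and CCAAT letters and Cdk1 also has an E2F match.

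With LPA, the cell cycle genes as a group stayed close to the vehicle level, and a few of them moved. In limma's fit over all genes, with Benjamini-Hochberg adjusted p below 0.05 as the call, 5 of 38 genes differed between LPA and control cultures: Ccnd1, E2f1 and Mcm4 rose, and Cdkn2c and E2f2 fell. Over all 13335 genes 23.0% were called in this comparison, 12.2% higher and 10.8% lower. Of the 9 G1 cyclin, kinase and E2F genes, 3 were called (33.3%). An unadjusted p below 0.05 was reached by 11 of 38 genes, beside 34.3% of all genes. The median difference of the 38 genes was 0.03 on the log2 scale, beside 0.01 over all genes, and the median absolute difference was 0.09, beside 0.12. With HA155, 0 of 38 genes differed from control in limma's fit, 4 had an unadjusted p below 0.05, and the lowest adjusted p was 0.433, for Top2a. Over all genes 1.03% were called with HA155 (0.607% higher, 0.427% lower), and 8.11% had an unadjusted p below 0.05. No source says whether cultures of a group came from separate mice, so the p-values rest on culture-to-culture spread, which may be technical. The call count with LPA rested partly on single cultures: it was 8 without LPA culture 8 and 3 without control culture 3.

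**Figure D1:**
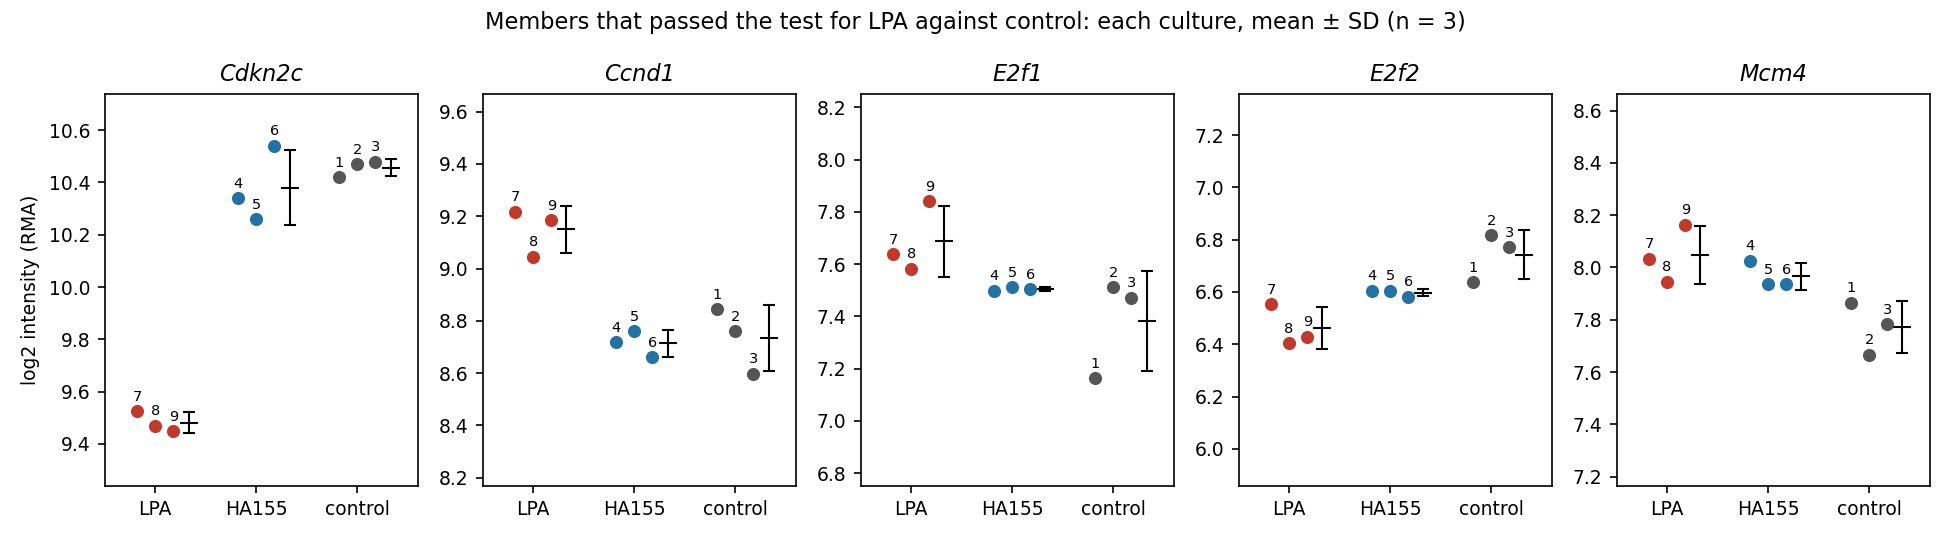
Log2 intensity in each culture (numbered points), with the group mean and SD beside them, for the 5 genes called between LPA and control, with groups LPA, HA155 and control (3 cultures each). Cdkn2c lies between 9.45 and 9.53 in LPA cultures, apart from all HA155 and control cultures, and the vertical scales differ in level.

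Cdkn2c encodes an INK4 inhibitor of the cyclin D kinases, and in mouse fat cell lines it is known to accumulate as precursors differentiate. Its intensity was 737, 709 and 698 in LPA cultures 7, 8 and 9, against 1295, 1229 and 1489 in HA155 cultures and 1374, 1414 and 1432 in control cultures. Every LPA culture lay below every culture of the other groups, while HA155 and control cultures overlapped. The difference between LPA and control was -0.98 on the log2 scale (SE 0.07, 95% interval -1.14 to -0.82, limma adjusted p = 5.1e-06), or 0.508 of the control level. Only 1.24% of all genes tested had a larger absolute difference. LPA against HA155 gave -0.90 (limma adjusted p = 5.31e-06), and HA155 against control gave -0.08 (limma adjusted p = 0.922). Adipocyte markers fell in the same cultures: all 15 general adipocyte markers were called lower with LPA (median -1.29), and their summed intensity ran between 30725 and 32008 in LPA cultures, between 61410 and 63866 in HA155 cultures and between 58423 and 60553 in control cultures. The part of this shift in the Cdkn2c difference was not tested.

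Cyclin D1, the product of Ccnd1, links growth signals to the G1 kinases. Its intensity was 595, 529 and 582 in LPA cultures, against 421, 434 and 405 in HA155 cultures and 460, 434 and 388 in control cultures. All LPA cultures stood above the rest, and HA155 and control cultures overlapped. The log2 difference was 0.42 against control (SE 0.08, limma adjusted p = 0.00215, 1.33-fold) and 0.44 against HA155 (limma adjusted p = 0.0013, 1.35-fold). The other D cyclins did not pass the test with LPA: Ccnd2, the brightest of the 3, differed by -0.03 (SE 0.07) and Ccnd3 by 0.03 (SE 0.08) from control. Their partner kinase gene Cdk4 differed by 0.07 (SE 0.08).

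The listed E2F genes, E2f1 and E2f2, both encode activators of transcription. E2f2 had intensities of 93.8, 84.7 and 86.1 in LPA cultures, against 97.3, 97.3 and 95.8 in HA155 cultures and 99.5, 112.8 and 109.1 in control cultures. The groups did not overlap in any pair, and the LPA difference from control was -0.28 (SE 0.07, limma adjusted p = 0.00974). E2f1 had 199.1, 191.6 and 229.2 in LPA cultures, against 180.8, 182.4 and 181.4 in HA155 cultures and 143.4, 182.4 and 177.6 in control cultures. All LPA cultures were above all control cultures, at 0.30 (SE 0.10, limma adjusted p = 0.0418), a call that was lost in 13 of 20 alternative settings. Ccne1, for a cyclin that drives entry into S phase, differed by -0.15 (SE 0.06, limma adjusted p = 0.102), and Ccne2 and Cdk2 by 0.01 (SE 0.13) and 0.03 (SE 0.08).

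Of the 8 genes of origin licensing and the replication fork, Mcm4 was called with LPA (12.5%, beside 23.0% of all genes). Mcm2 to Mcm7 encode the subunits of the replicative helicase. Mcm4 had 261.9, 246.7 and 286.8 in LPA cultures, against 260.6, 245.0 and 245.0 in HA155 cultures and 233.2, 203.2 and 220.2 in control cultures. LPA and HA155 cultures overlapped, and both groups lay above every control culture. The difference was 0.28 with LPA (SE 0.07, limma adjusted p = 0.0195) and 0.19 with HA155 (SE 0.07, limma adjusted p = 0.466). The LPA call was lost without LPA culture 9, without control culture 2 and without control culture 3, and when only LPA and control arrays were fitted. The other helicase genes ranged between -0.08 for Mcm7 and 0.18 for Mcm6 with LPA, none called. Mcm5 and Mcm6, whose promoters are shown above, differed by -0.004 (SE 0.09) and 0.18 (SE 0.07, limma adjusted p = 0.0921).

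Pcna encodes the sliding clamp of the fork. Its intensity was 959, 1155 and 1084 in LPA cultures, against 960, 971 and 918 in HA155 cultures and 956, 888 and 939 in control cultures. LPA and control cultures did not overlap, and the difference of 0.20 (SE 0.07) missed the threshold (limma adjusted p = 0.0785). A second Pcna probe set gave the same 0.20, with nearly equal log2 values in every culture, so it is not counted as a separate measurement. Cdc6, which loads the helicase onto origins, had 134.1, 117.8 and 125.0 in LPA cultures, against 173.3, 132.2 and 156.7 in HA155 cultures and 134.3, 126.7 and 132.2 in control cultures. LPA against HA155 gave -0.29 for Cdc6 (SE 0.09, limma adjusted p = 0.0411), although 1 LPA culture lay above 1 HA155 culture, and this call was lost in 11 of 20 alternative settings.

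Among the 4 genes that supply deoxynucleotides, none was called between LPA and control in limma's fit, beside 23.0% of all genes. An unadjusted p below 0.05 was reached by 1 of the 4, beside 34.3% of all genes. Tyms, for thymidylate synthase, had 232.4, 245.6 and 245.5 in LPA cultures, against 223.0, 205.8 and 201.3 in HA155 cultures and 225.3, 205.2 and 220.9 in control cultures. LPA cultures lay above both other groups. The difference from HA155 was 0.20 (SE 0.06, limma adjusted p = 0.0396) and was lost in 10 of 20 alternative settings, and that from control was 0.15 (limma adjusted p = 0.118). The ribonucleotide reductase genes Rrm1 and Rrm2 varied most in LPA cultures: Rrm1 had 1111, 818 and 1205 there, against 1104, 1118 and 1054 in HA155 cultures and 1037, 951 and 972 in control cultures. Tk1, for thymidine kinase, differed by 0.03 (SE 0.07), and its second, dimmer probe set gave -0.05.

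None of the 13 mitosis genes was called in any comparison in limma's fit. Over all genes 23.0% were called for LPA against control, 1.03% for HA155 against control and 26.1% for LPA against HA155. For LPA against control 1 of the 13 had an unadjusted p below 0.05, beside 34.3% of all genes. For HA155 against control it was 2 of the 13, beside 8.11%. Mki67, the proliferation marker Ki-67, had 383.5, 457.8 and 451.7 in LPA cultures, against 423.4, 423.4 and 430.7 in HA155 cultures and 420.1, 354.7 and 384.6 in control cultures. LPA cultures overlapped both groups, with a difference of 0.16 from control (SE 0.08, limma adjusted p = 0.211). Top2a, for the topoisomerase that untangles chromosomes, had 488.1, 473.4 and 529.4 in LPA cultures, against 507.4, 530.4 and 491.7 in HA155 cultures and 484.7, 410.2 and 435.8 in control cultures. Its HA155 cultures stood above all control cultures (0.20, SE 0.07, limma adjusted p = 0.433). Cdk1, the mitotic kinase, differed by 0.23 with LPA (SE 0.10, limma adjusted p = 0.146) and by 0.21 with HA155 (SE 0.10, limma adjusted p = 0.685). Its partner genes Ccna2 and Ccnb2 differed by 0.17 and -0.02 with LPA. The 13 mitosis genes ranged between -0.18 for Birc5, which encodes the survivin subunit of the chromosomal passenger complex, and 0.17 for Top2a, with a median of 0.01. The spindle kinase genes Aurka, Aurkb and Plk1 differed by -0.03, 0.01 and -0.04, and the checkpoint genes Bub1, Bub1b and Cdc20 by 0.07, 0.02 and -0.05. Kinesin genes Kif11 and Kif20a differed by 0.12 and 0.10, and Cdca8 and Cenpe, for passenger and kinetochore proteins, by -0.01 each.

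**Figure D2:**
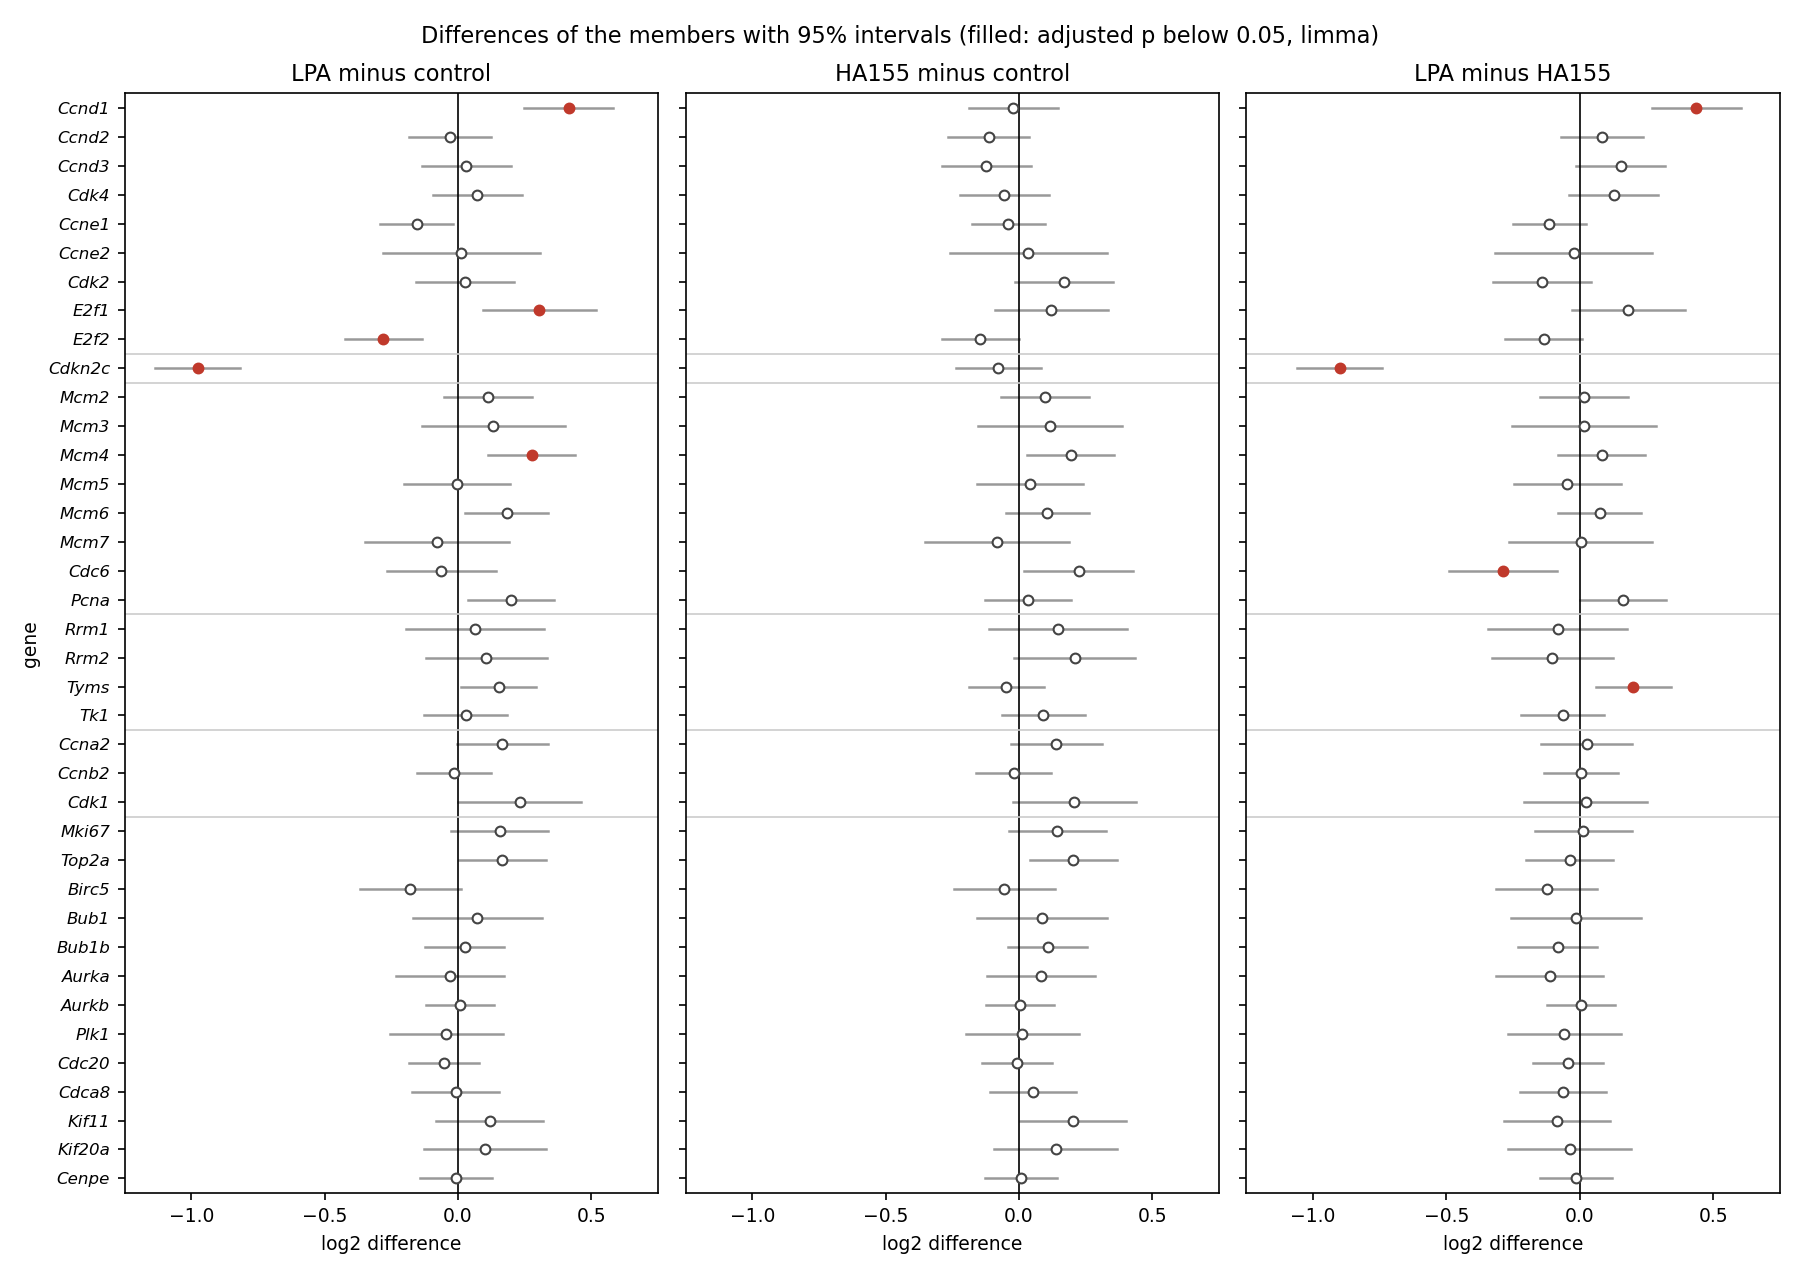
Log2 differences with 95% intervals for the 38 genes in each comparison (LPA minus control, HA155 minus control, LPA minus HA155), grouped by role, with called genes marked. Intervals of the mitosis genes stay within 0.5 of zero in every panel, while Cdkn2c with LPA lies near -0.98.

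How closely these values pin the genes down can be read from their intervals. Between LPA and control, 35 of 38 genes had 95% intervals inside 0.5 on the log2 scale in either direction, which is 1.41-fold, and the intervals of Ccnd1, E2f1 and Cdkn2c reached beyond it. With HA155 the intervals of all 38 genes lay inside. Over all genes the share was 81.1% for LPA and 96.7% for HA155.

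With HA155, 26 of 38 genes had a positive difference (68.4%, beside 51.0% of all genes), with a median of 0.07 beside 0.00 over all genes. The share was similar with LPA, at 24 of 38 (63.2%, beside 51.4% of all genes). HA155 and control cultures did not overlap for 8 of 38 genes (21.1%, beside 16.8% of all genes, 8.87% higher and 7.90% lower). Cdk2, Mcm4, Rrm1, Rrm2, Cdk1, Mki67 and Top2a were higher and E2f2 lower in every HA155 culture. With LPA the groups did not overlap for 8 of 38 genes either, beside 33.1% of all genes (17.5% higher, 15.6% lower): the 5 called genes, Pcna and Tyms higher, and Birc5 lower. LPA and HA155 were both set against the same control cultures, so their values are not independent. Set directly against HA155, LPA cultures differed for 4 of 38 genes in limma's fit (Ccnd1 and Tyms higher, Cdkn2c and Cdc6 lower), beside 26.1% of all genes (13.7% higher, 12.4% lower). An unadjusted p below 0.05 was reached by 5 of 38, beside 35.6% of all genes, and 8 of 38 did not overlap, beside 38.7% of all genes (20.5% higher, 18.2% lower). The count of 4 was 2 without LPA culture 9, without HA155 culture 6 or without control culture 3. In limma's F test over the 3 groups, 4 of 38 genes passed (Ccnd1, E2f2, Cdkn2c and Mcm4), beside 24.5% of all genes, and 2 without LPA culture 9, without control culture 2 or without control culture 3.

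**Figure D3:**
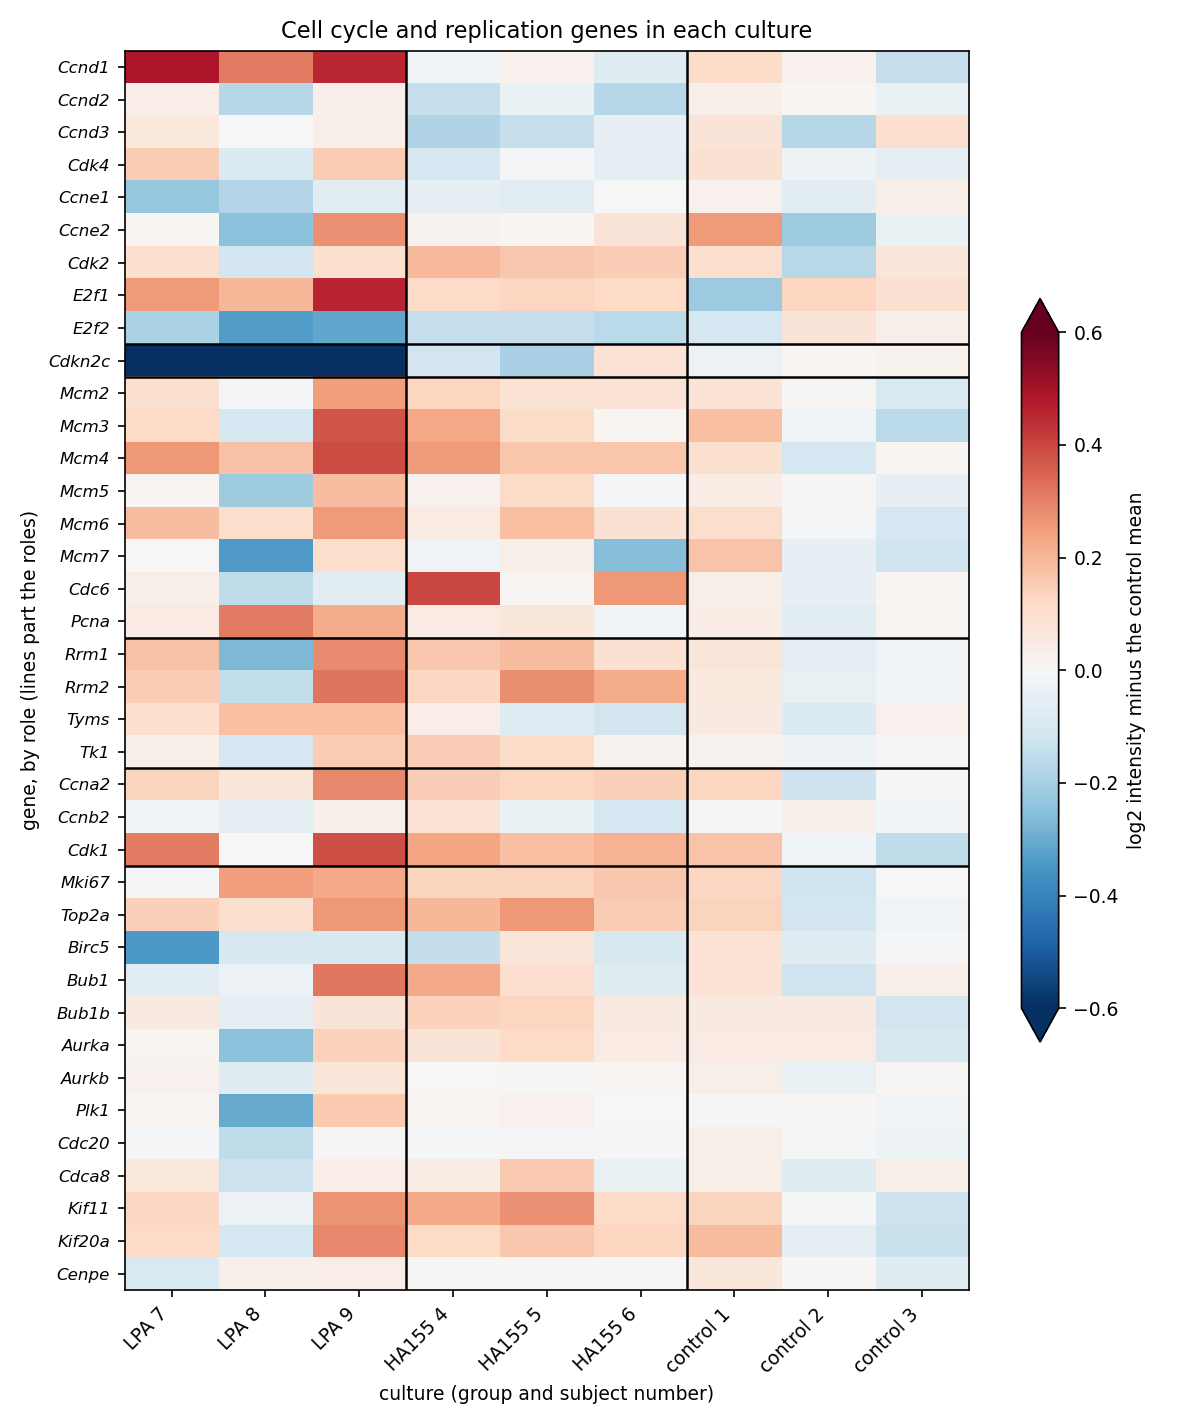
Log2 level of each of the 38 genes in each of the 9 cultures minus its mean in control cultures, ordered by role, with columns LPA, HA155 and control and colours capped at 0.6 in either direction. LPA culture 9 is high and LPA culture 8 low across many genes, and Cdkn2c is low in all LPA cultures.

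Some cultures of the same group differed across most of the listed genes, and others did not. LPA culture 9 was above LPA culture 8 in 34 of 38 genes (89.5%, beside 52.9% of all genes), with a median gap of 0.20 on the log2 scale, whereas HA155 culture 5 was above HA155 culture 4 in 19 of 38. LPA culture 9 was above LPA culture 7 in 29 of 38 genes (76.3%, beside 59.8% of all genes), but in 3 of the 9 G1 cyclin, kinase and E2F genes. LPA culture 9 held the highest value of all 9 cultures for 17 genes, and LPA culture 8 the lowest for 13. Shares over all genes were not computed for these 2 counts, and LPA cultures also had the widest spread over all genes. The median level relative to the control mean was 0.05, -0.09 and 0.17 in LPA cultures 7, 8 and 9, against 0.06, 0.09 and 0.02 in HA155 cultures 4, 5 and 6 and 0.07, -0.04 and -0.02 in control cultures 1, 2 and 3. Among control cultures, culture 1 was the highest for most genes: cultures 2 and 3 exceeded it in 10.5% and 13.2% of the 38, beside 37.6% and 37.7% of all genes, and culture 3 exceeded culture 2 in 19 of 38. Control culture 1 lay above its group's mean for all 13 mitosis genes, and for 8078 of all 13335 genes. The median SD between cultures was 0.124 with LPA, 0.0478 with HA155 and 0.087 in controls for the listed genes, beside 0.107, 0.054 and 0.0743 over all genes. Without LPA culture 8 the median difference between LPA and control was 0.11 and 8 genes were called, among them Rrm1, Rrm2 and Cdk1. Without LPA culture 9 it was -0.02, with 4 called.

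Markers of other cell types also moved with LPA, where 12.2% of all genes were called higher and 10.8% lower. Skeletal muscle markers, 8 of 13 called higher with LPA, had medians of 0.42, 0.71 and 0.33 in LPA cultures 7, 8 and 9 relative to control, and general adipocyte markers -1.20, -1.33 and -1.18. The sums given here also take in markers below the filter, over 15 muscle, 8 smooth muscle and pericyte and 12 brown fat markers. The summed intensity of the muscle list ran between 2313 and 2777 in LPA cultures, between 1747 and 1908 in HA155 cultures and between 1710 and 1853 in control cultures. Preadipocyte and fibroblast markers were called higher for 9 of 11 with LPA, with sums between 62573 and 68063 in LPA cultures, between 44433 and 49566 in HA155 cultures and between 48093 and 51012 in control cultures. Of 7 smooth muscle and pericyte markers 2 were called higher and 2 lower with LPA, with sums between 3703 and 3884 in LPA cultures, between 3278 and 3795 in HA155 cultures and between 2900 and 3196 in control cultures. Of 7 endothelial markers 1 was called higher and 1 lower. None of 6 macrophage markers was called in limma's fit, with 0 at an unadjusted p below 0.05, beside 34.3% of all genes. Of 12 brown fat markers, Ucp1, Cidea, Dio2 and Elovl3 lay below the filter, and 8 were tested. With LPA 4 of them fell, with log2 differences of -1.84 for Cox7a1, -1.85 for Cox8b, -0.60 for Ppargc1a and -0.66 for Pdk4, and Zic1 rose by 0.43. With HA155 Cox7a1, Cox8b and Pdk4 rose by 1.13, 1.01 and 0.53. The summed intensity of the brown list ran between 1255 and 1432 in LPA cultures, between 2945 and 3098 in HA155 cultures and between 1979 and 2090 in control cultures. The part of these markers in the cell cycle values was not tested.

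**Figure D4:**
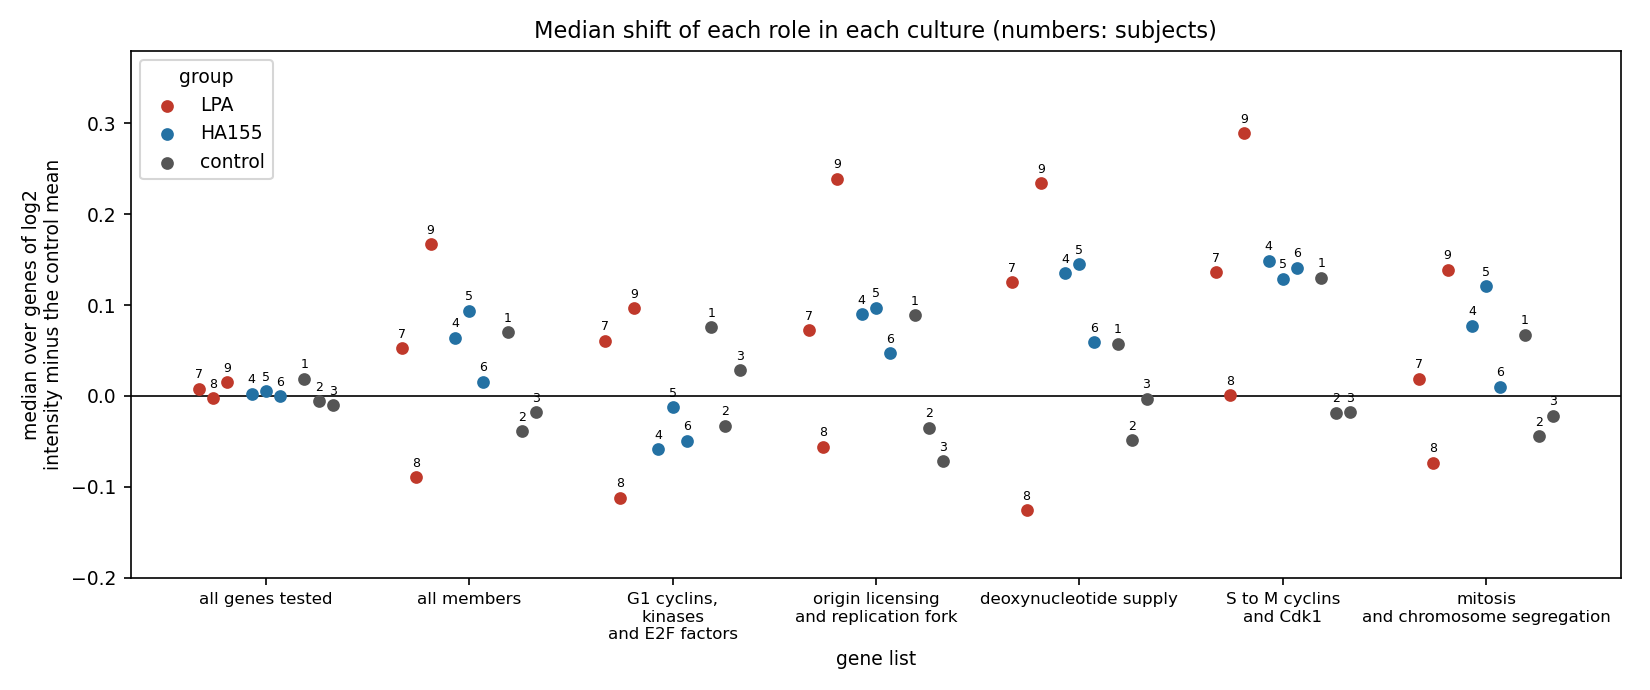
Median log2 level of each role's genes, minus the control mean, in every culture (LPA, HA155, control). All roles shown, and all genes tested, share the order of the LPA cultures, with culture 9 above culture 7 and culture 7 above culture 8. Over all genes tested the medians of LPA cultures 9, 7 and 8 are 0.0153, 0.00788 and -0.00244.

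In a wider list of 180 other cell cycle genes tested, 16 were called between LPA and control (11 higher, 5 lower, 8.89% in all, beside 23.0% of all genes). Between HA155 and control 0 were called, beside 1.03% of all genes, and 13 had an unadjusted p below 0.05, beside 8.11% of all genes. The 180 include 8 growth factor and Myc genes and 15 p53 target genes, described at the end. Of the calls between LPA and control, 3 and 6 lay in these parts of the list. Of 6 other CDK inhibitor genes 3 changed with LPA: Cdkn1b, for p27, and Cdkn1c, for p57, rose by 0.31 (limma adjusted p = 0.00122) and 0.30 (limma adjusted p = 0.0428, with LPA culture 8 level with control culture 1 at 8.57), and the INK4 gene Cdkn2d fell by 0.26 (limma adjusted p = 0.00417). Cdkn2a, Cdkn2b and Cdkn3 differed by 0.08, 0.12 and 0.03. Rb1, for the retinoblastoma protein, had log2 levels of 7.97, 8.28 and 8.23 in LPA cultures, against 8.81, 8.70 and 8.76 in HA155 cultures and 8.78, 8.66 and 8.74 in control cultures. LPA cultures lay below all others, by -0.57 from control (SE 0.08, limma adjusted p = 0.000484), while its relatives Rbl1 and Rbl2 differed by 0.08 and 0.23 and were not called.

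**Figure D5:**
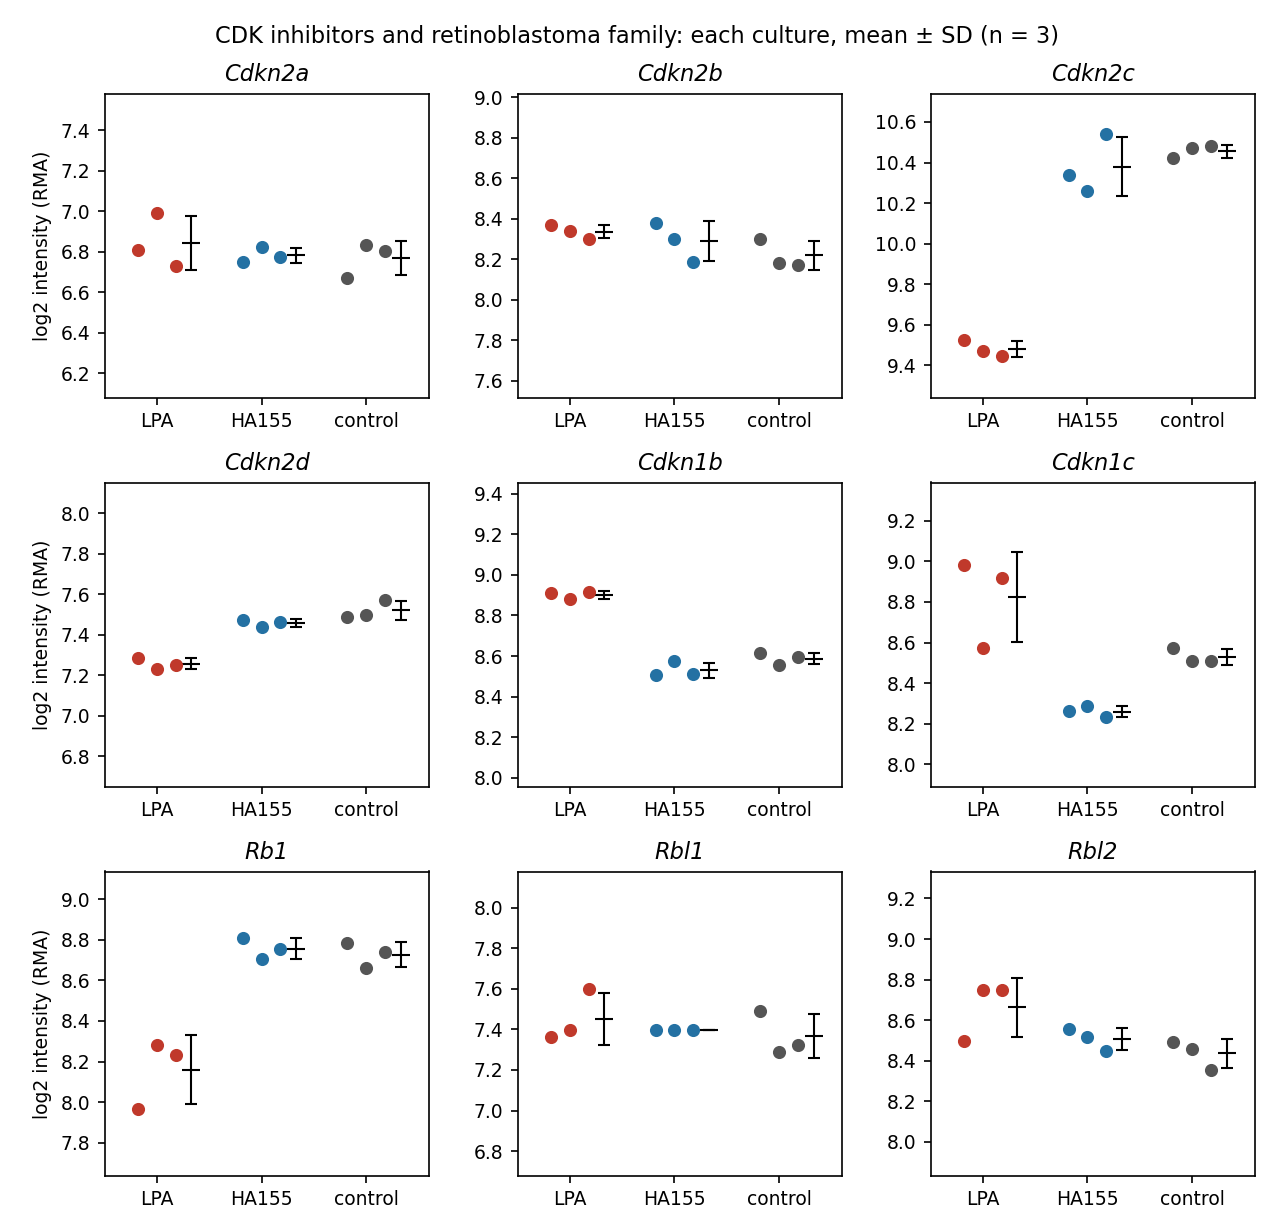
Log2 intensity in each culture of 6 CDK inhibitor genes and 3 retinoblastoma family genes (LPA, HA155, control), with group means and SD (n = 3). Cdkn2c, Cdkn2d and Rb1 are low and Cdkn1b high in all LPA cultures.

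Replication and spindle genes beyond the 38 gave single calls between LPA and control, where 23.0% of all genes were called. Of 40 other origin and fork genes, Asf1b, a histone chaperone gene, fell by 0.35 with LPA (limma adjusted p = 0.03). Of 56 other spindle and kinetochore genes, Fbxo5, which encodes the inhibitor EMI1 of the anaphase promoting complex, rose by 0.39 (limma adjusted p = 0.00165). None of 12 condensin and cohesin genes was called in limma's fit, with 2 at an unadjusted p below 0.05, beside 34.3% of all genes. Samhd1, for an enzyme that breaks down deoxynucleotides, rose by 0.33 (limma adjusted p = 0.00461). Against HA155, 20 of the 180 genes (11.1%, beside 26.1% of all genes) were called with LPA, 3 of them growth factor and Myc genes and 6 p53 target genes. Cdk6, a cyclin D kinase gene, was among the 20 at 0.30 (limma adjusted p = 0.0155). So were the replication genes Orc2 and Pold2, at -0.28 (limma adjusted p = 0.0162) and -0.30 (limma adjusted p = 0.0221).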

How the data were processed

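Expression arrays of 9 cultures were analysed. The deposited values are probe set intensities on a linear scale, made by the authors with RMA (background correction, normalization between arrays and summarization) per the submitters' processing notes. Its version and settings are not given in the sources used here. Array medians lay between 70.7 and 72.8, and 9 arrays limit the precision. Intensities were log2 transformed. Of 35432 probe sets 21706 carry a single symbol, 1605 several (not named here) and 12121 are unlisted. The brightest single-symbol probe set stood for each gene, kept where its mean reached the 40th percentile of all probe sets (intensity 48.2). Linear models with empirical Bayes moderation were fitted in limma 3.58.1 (R 4.3.3) to all 3 groups, with p-values adjusted by Benjamini-Hochberg within each comparison. Simulated data were used to test the fit. With 3 against 3 an exact permutation test cannot go below 0.1. The labels name no batch. Alternatives covered filters, probe set choice, normalization, offset, variance model and leaving out each array. All listed genes could be named; of other cell cycle genes, those past the threshold, or else those with the smallest p, could be named. The genes and lists were chosen with earlier results of these data known. Promoter sequences are RefSeq's.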

Additional observations from a re-analysis of the deposited data

How the results depend on the processing

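Over 20 alternatives (19 for the F test) no difference of a listed gene that was called changed sign. The calls of Ccnd1, Cdkn2c and E2f2 between LPA and control, and of Ccnd1 and Cdkn2c between LPA and HA155, were kept in all 20, and 0 listed genes were called between HA155 and control in any. Fitting only the arrays of the groups compared gave 3 listed genes and 10 other cell cycle genes for LPA against control, 2 other cell cycle genes for HA155 against control, and 2 listed genes for LPA against HA155. Without the intensity filter, 86 genes were called between HA155 and control and 2 listed genes between LPA and HA155. Array weights gave 338 genes and 3 other cell cycle genes for HA155 against control and 2 listed genes for LPA against HA155. Leaving out each culture in turn gave 3 to 8 listed genes and 10 to 20 other cell cycle genes for LPA against control. For HA155 against control it gave 39 to 235 of all genes, the highest without LPA culture 8 and the lowest without control culture 2, and 0 to 2 other cell cycle genes. For LPA against HA155 it gave 2 to 5 listed genes and 13 to 26 other cell cycle genes, and for the F test 2 to 5 listed genes. The median difference of the listed genes between LPA and control ran between -0.0155 and 0.106. The causes of these shifts were not tested. No paired analysis was possible because the groups share no subject numbers.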

Other observations

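The 180 other cell cycle genes counted above include genes of growth signals ahead of cyclin D1 and known p53 target genes. Among 8 tested genes of growth factor and Myc signalling 3 rose with LPA against control in limma's fit (37.5%, beside 12.2% of all genes called higher). Neither list's share was tested against that of all genes. Jun, an immediate early transcription factor gene, had log2 levels of 7.94, 8.10 and 8.02 in LPA cultures, against 7.65, 7.50 and 7.66 in HA155 cultures and 7.57, 7.51 and 7.60 in control cultures. The difference from control was 0.46 (limma adjusted p = 0.000453). Ets2 and Myc, also transcription factor genes, rose by 0.39 (limma adjusted p = 0.0163) and 0.28 (limma adjusted p = 0.0196). Odc1, for the first enzyme of polyamine synthesis and a known Myc target, differed by 0.01 with LPA and by 0.31 with HA155 (limma adjusted p = 0.108).

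Among 15 tested p53 target genes 4 rose and 2 fell with LPA (6 of 15 in all, beside 23.0% of all genes called in either direction). Plk2, for a polo-like kinase, had log2 levels of 8.58, 8.33 and 8.65 in LPA cultures, against 7.92, 8.03 and 7.84 in HA155 cultures and 7.81, 7.59 and 7.59 in control cultures, a difference of 0.86 from control (limma adjusted p = 8e-05). Gadd45a and Gadd45b, stress response genes, rose by 0.41 and 0.30, and Pmaip1, for the NOXA protein, by 0.40. Phlda3 and Ccng1 fell by 0.49 and 0.26. With HA155 none of these 15 genes was called in limma's fit, beside 1.03% of all genes. An unadjusted p below 0.05 was reached by 2 of the 15, beside 8.11% of all genes.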
